A study of Mus musculus with 40 samples.

Results

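Peritoneal macrophages taken straight from mice were set against the macrophage lines Raw 264 and J774 on nylon filter arrays. The 8 arrays, of 40 in the series, were chosen by sample title: 3 of isolated peritoneal macrophages, 3 of Raw 264 and 2 of J774. A difference below is the mean of the macrophage arrays minus the mean of the 2 line means, so that both lines weigh equally. The macrophages were washed out of the peritoneal cavity and kept 24 h in DMEM-F12 with 10% NCS, which left the adherent cells. Both lines were kept below confluence in DMEM with 10% FCS over few passages, so cell source, medium and serum changed together and cannot be told apart. No agent is named for any of these 8 samples, and the sources used here do not give the strain, sex or age of the mice or any pooling. The other 32 arrays hold fat, muscle, liver and embryonic stem cell samples and served here for the error of the fit and for levels elsewhere.

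Resident peritoneal macrophages are long-lived phagocytes that clear debris and microbes from the body cavity and divide little. Raw 264 and J774 arose from tumours of mice, divide continuously and are widely used as stand-ins for macrophages. Macrophages are known for their phagocyte oxidase, their pore-forming and granule proteins, their chemokines and their secreted inhibitors of proteases.

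Values are log2 of the spot intensity after quantile normalization, with an offset added that compresses the differences of dim spots. A spot was called when its Benjamini-Hochberg adjusted p from limma over all 5760 spots was under 0.05. The labels do not say whether arrays of 1 group stem from different animals or dishes. The p-values thus measure only the spread between arrays within groups, which may be technical, and the small number of arrays limits the precision. That spread was pooled over all 14 groups, and among the preadipocyte lines it is a spread between different cell lines. Before normalization the median spot intensity ran from 34834 to 73599 on the macrophage arrays and from 28429 to 94530 on the line arrays, and it did not separate them (exact permutation test over the arrays, two-sided p = 0.5). Correlations across spots of the levels centred on the 40-array mean are given as a description only. Macrophage arrays correlated with each other at 0.13 to 0.64, Raw 264 arrays at 0.10 to 0.30 and the J774 arrays at 0.57. Between macrophages and Raw 264 they ran from -0.29 to 0.16, and between macrophages and J774 from -0.35 to -0.06.

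Of 15 genes that define macrophages, 4 were measured, and they set these 8 arrays apart from the other groups to different degrees. Fcer1g, the signalling chain shared by Fc receptors, had a mean level of 17.66 in macrophages, 18.15 in Raw 264 and 17.31 in J774, against 16.39 to 16.83 over the means of the 11 other groups. Itgb2, the beta chain of the leukocyte integrins, stood at 17.37, 16.74 and 16.58 in the same order, against 16.11 to 16.38 elsewhere. Cybb, the catalytic chain of the phagocyte oxidase, stood at 18.52, 17.45 and 16.65, against 16.32 to 16.61 elsewhere. Mpeg1, which encodes the pore-forming protein perforin-2, stood at 17.89 in macrophages but at 16.87 and 16.85 in the lines, within reach of the 16.46 to 16.82 of the other groups. In J774, Fcer1g and Itgb2 thus stood above the other groups, and Cybb and Mpeg1 lay near them.

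Macrophages differed from both lines at 167 of 5760 spots, 2.90% of those tested, with 94 spots higher and 73 lower. The higher spots named 61 genes and the lower spots 32, while 4 called spots carry clone names and 70 have no gene. Protease inhibitors, phagocyte genes and a chemokine were among the higher genes, and galectin-1, ribosomal proteins and enzymes of glycolysis and of serine and purine synthesis among the lower. Called differences had a median size of 0.66 for the higher spots and 0.99 for the lower, and reached 1.96 and 2.14 at spots with no gene. At 86 of the 94 higher and 53 of the 73 lower spots the 3 macrophage arrays did not overlap the 5 line arrays, against 6.28% and 4.69% of all spots without overlap in these directions. A call itself favours spots without overlap, so the shares over all spots are not a like baseline. The count fell to 53 without J774 array 1, with 24 higher and 29 lower, to 66 without macrophage array 3 and to 72 without macrophage array 2, and to 20, with 13 higher and 7 lower, when arrays were scaled to their medians in place of quantile normalization. Without any scaling it was 5, all higher, against a shift of 0.20 in the median of all spots, and weighting arrays by their quality raised it to 1154.

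**Figure D1:**
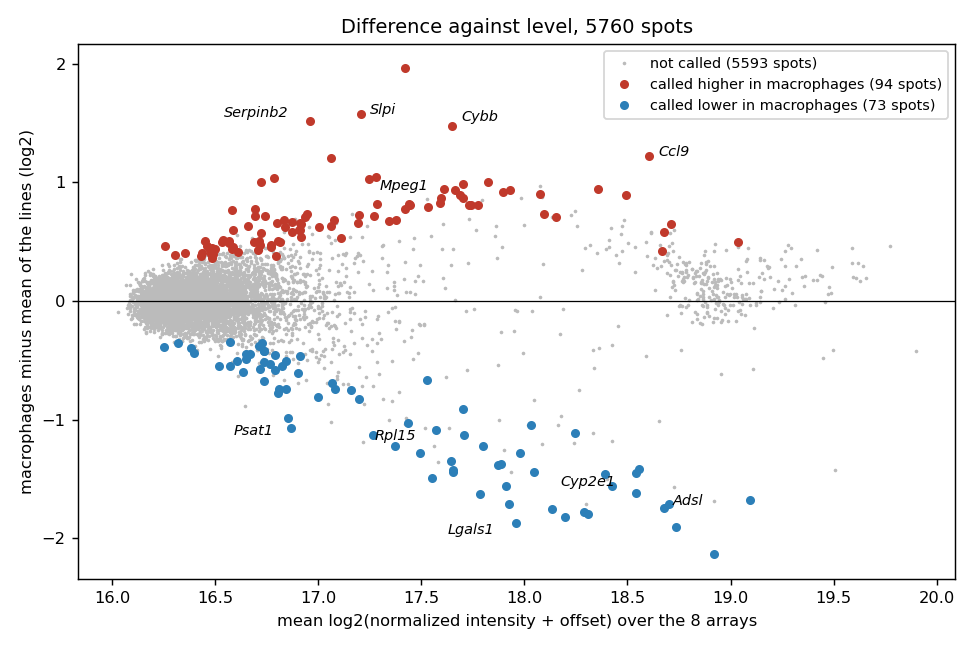
Difference between macrophages and the mean of the lines (log2, vertical axis) against the mean level over the 8 arrays (horizontal axis), 1 point per spot, with called spots in colour. The called spots lie above the typical level, with a median of 16.9 for the 94 higher and 17.3 for the 73 lower ones against 16.4 over all spots.

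The largest rises of named genes were those of Slpi and Serpinb2, both inhibitors of proteases. Slpi, the secretory leukocyte protease inhibitor, which blocks neutrophil elastase, had levels of 18.46, 18.12 and 18.10 on macrophage arrays 1 to 3. It read 16.68, 16.33 and 16.23 on the Raw 264 arrays and 16.99 and 16.76 on the J774 arrays. All 3 macrophage arrays lay above every line array, and J774 lay a little above Raw 264. The difference was 1.58 ± 0.13 (SE), about 2.99-fold on this compressed scale, with an adjusted p of 3.37e-10. Serpinb2, also known as PAI-2, an inhibitor of the urokinase plasminogen activator, read 17.86, 17.86 and 18.01 on the macrophage arrays. It read 16.29 to 16.45 on the Raw 264 arrays and 16.41 and 16.44 on the J774 arrays. The line arrays lay close together and far below the macrophages, and the difference was 1.52 ± 0.10 with an adjusted p of 4.58e-12.

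Slpi was highest in macrophages of all 14 groups, and its next highest group was J774 at 16.87, followed by preadipocyte lines at 16.73 and stroma-vascular cells at 16.56. The preadipocyte samples, from 16.33 to 17.19, spanned the arrays of both neighbours, while both J774 arrays lay above the stroma-vascular arrays, from 16.49 to 16.65. Serpinb2 was also highest in macrophages, at 17.91, with stroma-vascular cells of inguinal fat second at 17.23 and their arrays between 17.20 and 17.27. Every other group had a mean of 16.42 or less, so that both lines lay at the level of liver, at 16.40. Slpi and Serpinb2 kept their call under each array left out in turn and without scaling.

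The promoters of Serpinb2, Slpi and Mpeg1 are printed because these 3 genes of the lists of secreted defence and phagocyte genes rose against each line alone, without overlap between groups. Each window is 300 bases of the coding strand from RefSeq on GRCm38.p6, 250 before the gene's start and 50 after it, at chr1:107511173-107511472 on the plus strand for Serpinb2, chr2:164356458-164356757 on the minus strand for Slpi and chr19:12460520-12460819 on the plus strand for Mpeg1. Capitals mark matches on either strand to GAGGAAGT (a form of the PU.1 motif), TGANTCA (AP-1) and TATAAA (the TATA box).
Serpinb2: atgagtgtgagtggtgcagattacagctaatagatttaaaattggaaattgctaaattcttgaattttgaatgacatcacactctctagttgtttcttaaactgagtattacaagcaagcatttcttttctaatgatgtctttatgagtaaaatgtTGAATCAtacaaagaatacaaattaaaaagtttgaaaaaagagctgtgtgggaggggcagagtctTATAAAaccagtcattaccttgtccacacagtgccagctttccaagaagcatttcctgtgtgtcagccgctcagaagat
Slpi: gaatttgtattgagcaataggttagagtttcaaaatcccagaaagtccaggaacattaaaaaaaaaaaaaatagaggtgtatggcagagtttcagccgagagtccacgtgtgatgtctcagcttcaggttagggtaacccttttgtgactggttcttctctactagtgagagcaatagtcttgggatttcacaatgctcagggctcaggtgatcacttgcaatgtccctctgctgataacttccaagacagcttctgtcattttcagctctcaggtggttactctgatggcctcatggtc
Mpeg1: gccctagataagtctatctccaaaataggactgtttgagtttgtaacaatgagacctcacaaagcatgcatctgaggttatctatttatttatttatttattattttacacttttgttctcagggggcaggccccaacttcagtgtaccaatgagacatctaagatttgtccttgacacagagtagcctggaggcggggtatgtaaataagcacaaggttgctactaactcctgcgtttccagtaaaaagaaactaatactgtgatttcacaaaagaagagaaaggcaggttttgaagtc
Serpinb2 held TGAATCA, a form of the AP-1 motif, at bases 157 to 163 and TATAAA at bases 222 to 227, counted from 1 at the 5′ end with the start at base 251. The windows of Slpi and Mpeg1 held none of the 3 motifs, which says only that these letters are not there. TGANTCA stood in 7.93% of all 27025 promoters of this length and in 5.95% of the 2522 of genes on the array, and TATAAA in 14.2% and 7.53%. GAGGAAGT stood in 3.28% and 3.49%, and in 3 of the 46 of genes called higher and 3 of the 25 of genes called lower that were matched. TGANTCA stood in 5 of the 46 and 3 of the 25, and so did TATAAA. A match is a description and not a site.

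**Figure D2:**
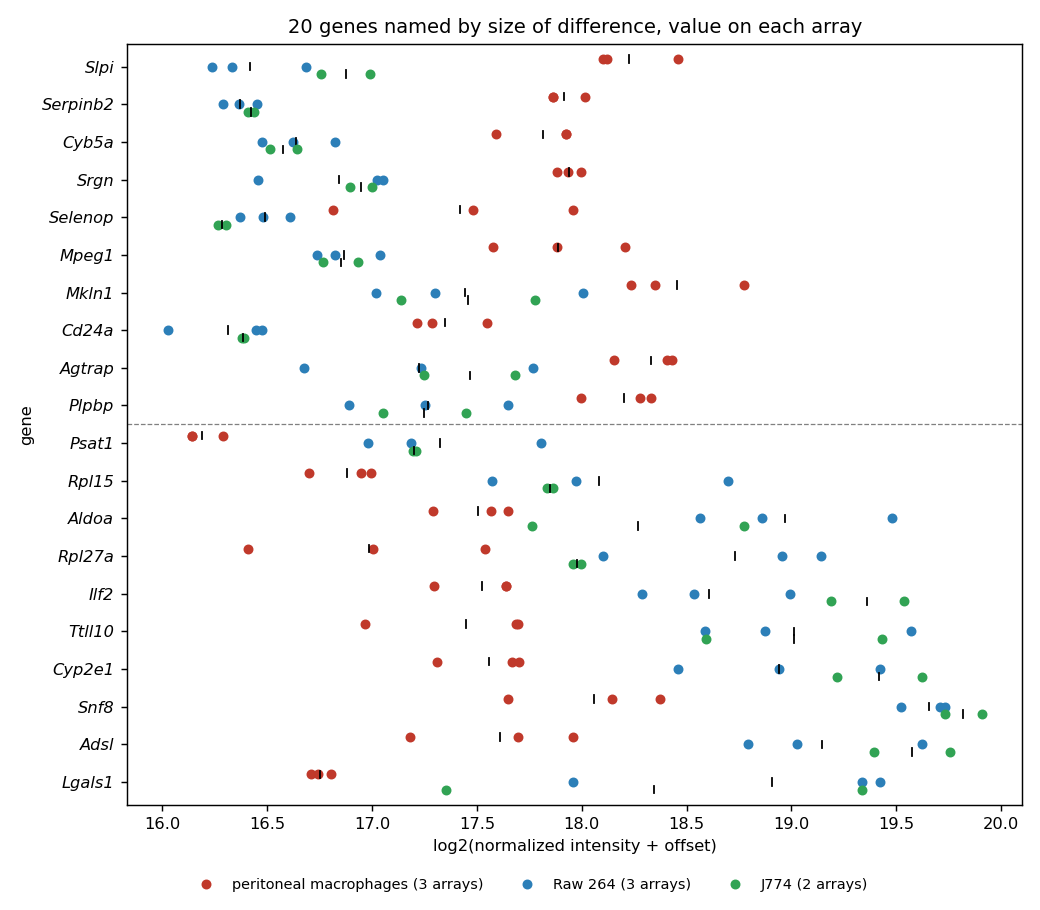
Level of the 10 largest rises (above the dashed line) and the 10 largest falls (below it) among called genes whose macrophage arrays did not overlap the line arrays, in log2 units, 1 point per array and a black bar at each group's mean. Slpi and Serpinb2 have the widest gaps among the rises, and Lgals1 is tight in macrophages, from 16.71 to 16.80, and spread in the lines, from 17.35 to 19.42.

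Of 12 measured receptors and effectors of macrophages, 3 rose, against 1.63% of all spots called higher, and none fell. Mpeg1 read 17.58, 18.20 and 17.88 on the macrophage arrays, 17.04, 16.82 and 16.74 on Raw 264 and 16.77 and 16.93 on J774. Its groups did not overlap, and its difference was 1.03 ± 0.13 with an adjusted p of 9.31e-06. Cybb read 18.84, 18.28 and 18.44 in macrophages and 18.83 on Raw 264 array 1, but 16.59 and 16.92 on the other Raw 264 arrays and 16.58 and 16.72 on J774. Raw 264 array 1 thus lay among the macrophages. The difference was 1.47 ± 0.25 (adjusted p = 0.000493), and 1.83 ± 0.12 without that array. Itgb2 read 18.10, 16.54 and 17.47 in macrophages against 16.56 to 16.90 over the 5 line arrays. Macrophage array 2 lay below every line array. The difference of 0.71 ± 0.17 (adjusted p = 0.0127) was 0.35 without array 1, with an adjusted p of 0.235, and the call was also lost without macrophage array 3 (0.0870) or J774 array 1 (0.0658).

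The other 9 members of the list were not called. Tlr4, the receptor for endotoxin, had a difference of 0.53 ± 0.22, Mertk, a receptor for dying cells, 0.22 ± 0.13, and Fcer1g -0.07 ± 0.17. Cd163, the haemoglobin scavenger receptor, had -0.43 ± 0.16 against both lines and was called only against J774, at -0.73 with an adjusted p of 0.0491. The median over the 12 was 0.12, beside -0.01 over the 3211 genes measured with 1 spot each.

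Products that macrophages secrete or store moved in both directions. In the list of complement and secreted defence, 2 of 6 measured members rose, Slpi and Serpinb2, and 1 fell, Lgals1, against 1.63% and 1.27% of all spots. No complement gene was among these 6. Lpl, the lipoprotein lipase that macrophages also secrete, had 0.47 ± 0.16 and was not called. Of 5 chemokines, cytokines and their receptors, Ccl9 alone was called, against 2.90% of all spots. Ccl9, a CC chemokine that draws myeloid cells, read 19.81, 18.75 and 19.45 in macrophages and 19.25, 18.41 and 17.52 on the Raw 264 arrays. It read 18.11 and 17.56 on J774. Raw 264 array 1 again reached the macrophage range. The difference was 1.22 ± 0.26 (adjusted p = 0.00461), and 1.44 without Raw 264 array 1; without macrophage array 1 it was 0.99 with an adjusted p of 0.0633. Csf1, the macrophage growth factor, had 0.09 ± 0.12.

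Raw 264 array 1 was at or above the lowest macrophage array at 6 of the 94 higher spots. The same count was 1 for each of Raw 264 arrays 2 and 3 and J774 array 1, and 3 for J774 array 2. Over all 5760 spots, Raw 264 array 1 was the highest of the 8 arrays at 1000, the largest count of any array. Its count at the higher spots is thus not shown to be particular to these genes. The cause was not tested.

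Of 9 lysosomal genes, Ctsb, the protease cathepsin B, alone rose, against 1.63% of all spots called higher. It read 16.77, 16.39 and 16.63 in macrophages against 16.08 to 16.32 in the lines, a difference of 0.40 ± 0.11 with an adjusted p of 0.0326. The groups did not overlap, but the call was kept in only 2 of the 8 fits that leave out 1 array. The spot is dim, and all its line arrays lay below 16.4, the median level of all spots. Asah1, the acid ceramidase, had 0.30 ± 0.10 and Lamp1, a main lysosomal membrane protein, 0.05 ± 0.12; neither was called. The list's median was 0.03. Antigen presentation and interferon genes gave no call among 11 members, with differences from -0.23 to 0.31 and a median of 0.09. Of these members 3 had an unadjusted p under 0.05, as had 837 of all 5760 spots.

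Outside the lists, Srgn rose by 1.04 ± 0.17 (adjusted p = 0.000404). It encodes serglycin, the proteoglycan core of leukocyte granules, and read 17.88, 18.00 and 17.93 in macrophages against 16.45 to 17.05 in the lines. Stroma-vascular cells were the next group after macrophages for Srgn, at 17.23, followed by inguinal adipocytes at 17.05, then J774 at 16.95 and Raw 264 at 16.84. The stroma-vascular arrays, from 17.13 to 17.39, lay above every line array, while the inguinal adipocyte arrays, from 16.74 to 17.28, overlapped both lines. Cd24a, a small surface glycoprotein of leukocytes, read 17.28, 17.55 and 17.21 in macrophages against 16.02 to 16.47 in the lines. Its difference was 1.00 ± 0.15 (adjusted p = 0.000163).

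Cyb5a and Selenop, genes strongly expressed in liver, were also higher in macrophages than in the lines. Cyb5a encodes the electron carrier cytochrome b5 and read 17.92, 17.92 and 17.59 in macrophages against 16.47 to 16.82 in the lines. Its difference was 1.21 ± 0.28 (adjusted p = 0.0129), and the call was lost without macrophage array 1 (adjusted p = 0.0604), macrophage array 2 (0.0955) or J774 array 1 (0.0761). Its liver mean of 18.10 hides a pair of arrays at 16.80 and 19.39. Selenop encodes the selenium carrier of plasma and read 16.82, 17.96 and 17.48 in macrophages against 16.27 to 16.61 in the lines. Its difference was 1.03 ± 0.20 (adjusted p = 0.00236), or 0.77 with an adjusted p of 0.0742 without macrophage array 2, and liver had its highest mean, 18.85.

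Mkln1, Agtrap and Plpbp completed the 10 largest rises among genes whose groups did not overlap. Mkln1, which encodes muskelin of a ubiquitin ligase complex, rose by 1.00 ± 0.24 (adjusted p = 0.0141). The call was lost without macrophage array 1 (adjusted p = 0.107), macrophage array 3 (0.0515) or J774 array 1 (0.147). Its other spot had 0.17 ± 0.10 and was not called, so the 2 spots of this gene disagree. Agtrap, which encodes a protein that binds the angiotensin II receptor, rose by 0.99 ± 0.27 (adjusted p = 0.0367), and Plpbp, a pyridoxal phosphate binding protein, by 0.94 ± 0.19 (adjusted p = 0.00286). Agtrap was called in only 2 of the 8 fits with an array left out, those without Raw 264 array 3 or J774 array 2, and Plpbp in all 8. These 3 were bright in many groups: Agtrap had a mean of 18.33 in macrophages, 18.24 in stroma-vascular cells and 18.21 in ZIN40 cells with LIF.

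The largest fall of a named gene without overlap was that of Lgals1, which encodes galectin-1, a secreted lectin that binds beta-galactosides. Lgals1 read 16.80, 16.71 and 16.74 on the macrophage arrays. It read 19.42, 19.34 and 17.96 on Raw 264 and 19.34 and 17.35 on J774. Macrophages were uniformly low, while Raw 264 array 3 and J774 array 2 lay far below the other line arrays. The difference was -1.88 ± 0.35 (adjusted p = 0.00186), and -1.38 without J774 array 1. Over all groups Lgals1 was highest in C3H-10T1/2 at 19.60, C2C12 myoblasts at 19.28 and preadipocyte lines at 19.24, which did not differ beyond their spread. It was lowest in liver at 16.44, ZIN40 cells without LIF at 16.62 and macrophages at 16.75.

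All 8 measured ribosomal protein genes had negative differences, and 3 of them fell, against 1.27% of all spots called lower. Their median difference was -0.68, beside -0.01 over all genes, and it was -0.64 with median scaling and -0.52 without scaling. Rpl27a read 17.54, 16.41 and 17.00 in macrophages, 18.95, 19.14 and 18.10 on Raw 264 and 18.00 and 17.96 on J774. The groups did not overlap, Raw 264 was the higher line, and the difference was -1.37 ± 0.31 (adjusted p = 0.00938), with a call lost without macrophage array 2 (adjusted p = 0.15), macrophage array 3 (0.0502) or J774 array 1 (0.0535). Rpl15 fell by 1.08 on the log2 scale (SE 0.24, adjusted p = 0.00729), also without overlap, and was not called without macrophage array 2 (adjusted p = 0.0766). Rps3 read 17.37, 16.34 and 17.17 in macrophages against 18.57, 19.64 and 18.20 on Raw 264, but 18.47 and 16.64 on J774. J774 array 2 thus lay within the macrophage range, and the difference of -1.22 ± 0.31 (adjusted p = 0.0235) was -0.77 with an adjusted p of 0.320 without J774 array 1. None of the 3 was called with median scaling (adjusted p = 0.352 for Rpl27a, 0.0683 for Rpl15 and 0.438 for Rps3) or without scaling. Of the members not called, Rpl34 had -0.70 ± 0.24, Rpl19 -0.66 ± 0.33 and Rpl22 -0.12 ± 0.11.

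**Figure D3:**
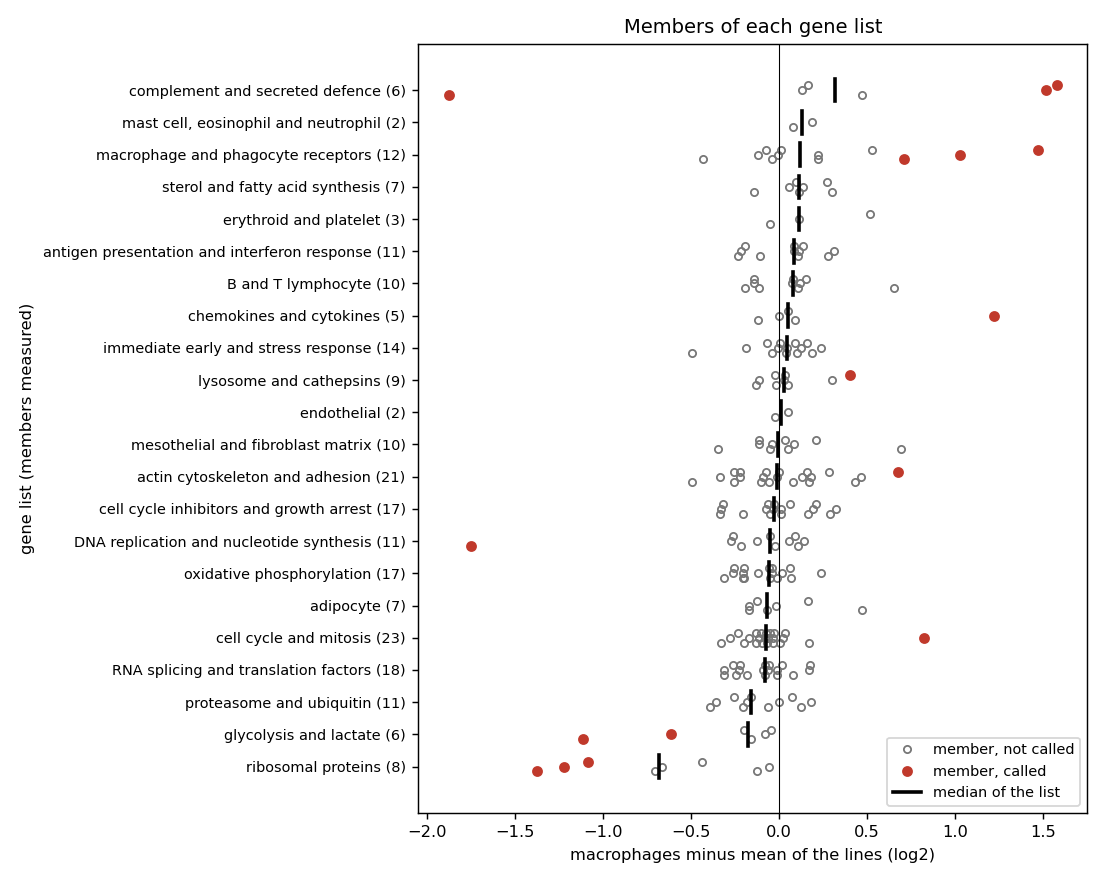
Difference between macrophages and the lines (log2) for each measured member of 22 gene lists, 1 point per gene, filled where called, with a bar at the list's median. The ribosomal proteins have the lowest median, -0.68, and the list of complement and secreted defence the highest, 0.32. No complement gene was among the measured members of the latter.

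All 6 glycolysis genes had negative differences as well, and 2 fell, against 1.27% of all spots called lower and 47.8% of all genes with a positive difference. Aldoa, the aldolase of muscle and most other tissues, read 17.65, 17.29 and 17.57 in macrophages, 18.86, 19.48 and 18.56 on Raw 264 and 18.77 and 17.76 on J774. The groups did not overlap, but J774 array 2 lay just above macrophage array 1. The difference was -1.12 ± 0.27 (adjusted p = 0.0163), with a call lost without macrophage array 2 (adjusted p = 0.137), macrophage array 3 (0.0616) or J774 array 1 (0.195). Pfkp, the platelet form of phosphofructokinase, which sets the pace of glycolysis, read 16.41 to 16.61 in macrophages against 16.77 to 17.37 in the lines. Its difference was smaller, -0.61 ± 0.11, with an adjusted p of 0.00100 and no overlap. The list's median was -0.18, and -0.01 without scaling, a setting that moves the median of all spots up by 0.20.

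Psat1, an enzyme of serine synthesis, read 16.29, 16.14 and 16.14 in macrophages against 16.98 to 17.80 in the lines. It fell by 1.07 on the log2 scale (SE 0.20, adjusted p = 0.00135), and the call held under every left-out array and with median scaling. Adsl, adenylosuccinate lyase of purine synthesis, was the 1 called gene among 11 of DNA replication and nucleotide synthesis, against 1.27% of all spots called lower. It read 17.96, 17.18 and 17.69 in macrophages, 19.03, 19.62 and 18.79 on Raw 264 and 19.75 and 19.39 on J774. The groups did not overlap, and the difference was -1.75 ± 0.41 (adjusted p = 0.0124), with a call lost without macrophage array 2 (adjusted p = 0.131), macrophage array 3 (0.0515) or J774 array 1 (0.0776). Adsl was highest in J774 at 19.57, then C2C12 myoblasts at 19.17 and Raw 264 at 19.15. The myoblast arrays, from 19.09 to 19.26, lay within the range of Raw 264 and below both J774 arrays. It was lowest in inguinal adipocytes at 17.03.

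Snf8, Cyp2e1, Ttll10 and Ilf2 were further falls without overlap, of genes with unrelated roles. Snf8, a subunit of the ESCRT-II sorting complex, read 18.38, 17.65 and 18.14 in macrophages against 19.52 to 19.91 in the lines, a difference of -1.68 ± 0.45 (adjusted p = 0.0326). Its other spot had -0.99 ± 0.29 and just missed the call, at an adjusted p of 0.0593. The call at the first spot was kept in 2 of the 8 fits that leave out 1 array. Snf8 was high in J774 at 19.82, Raw 264 at 19.65 and C2C12 myoblasts at 19.43, and lowest in inguinal adipocytes at 17.08. Ilf2, which encodes the RNA-binding protein NF45, read 17.64, 17.30 and 17.64 against 18.29 to 19.53, a difference of -1.46 ± 0.29 (adjusted p = 0.00278). Ttll10, of the tubulin tyrosine ligase family, had -1.56 ± 0.41 (adjusted p = 0.0275) and was called in 3 of the 8 fits with an array left out.

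Cyp2e1, the cytochrome P450 that oxidizes ethanol and is known as a liver enzyme, read 17.70, 17.31 and 17.67 in macrophages, 18.94, 19.42 and 18.46 on Raw 264 and 19.62 and 19.22 on J774. Its difference was -1.62 ± 0.32 (adjusted p = 0.00298), without overlap. The spot annotated as Cyp2e1 was not highest in liver, where it stood at 17.63, below J774 at 19.42, Raw 264 at 18.94 and C2C12 myoblasts at 18.25. Whether the spot holds that gene was not tested.

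**Figure D4:**
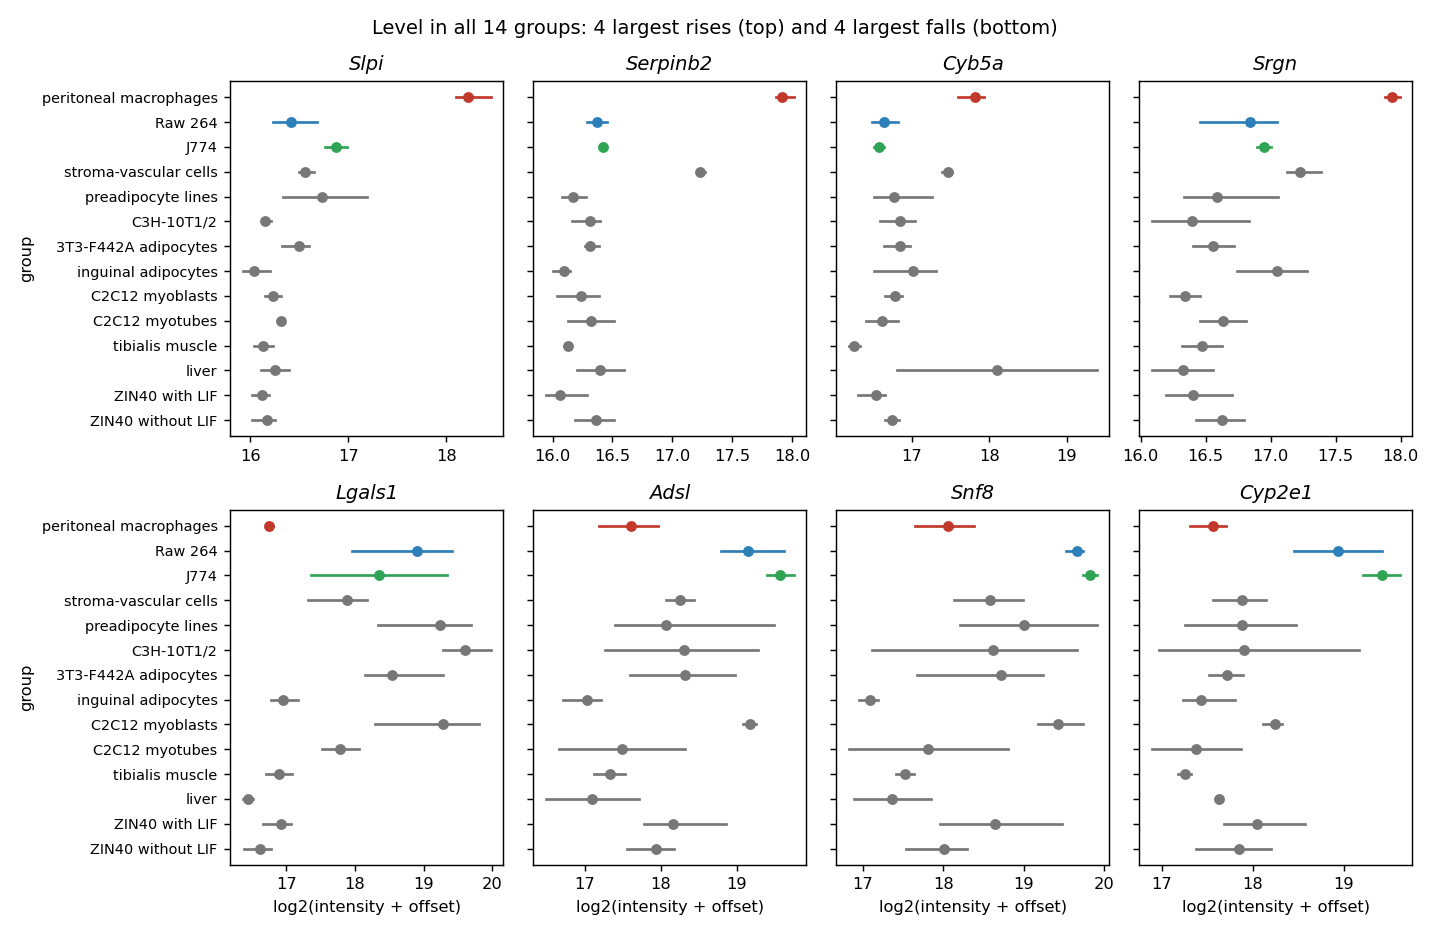
Level (log2) of the 4 largest rises and the 4 largest falls without overlap in all 14 groups, with a point at the mean and a line from the lowest to the highest array. Slpi, Serpinb2 and Srgn are highest in macrophages, Cyb5a is second to liver, whose arrays lie far apart, and Adsl, Snf8 and Cyp2e1 are highest in the J774 line.

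J774 was the highest of the 14 groups at 54 of the 73 lower spots and Raw 264 at 11, against 615 and 430 of all 5760 spots. J774 array 1 was the highest of the 8 arrays at 43 of the 73, against 802 of all 5760. Macrophages were the highest group at 44 of the 94 higher spots and the lowest group at 7 of the 73 lower spots, against 234 and 286 of all 5760. The called spots were selected for their direction, which favours these groups and arrays in advance. The counts over all 5760 spots are therefore not a like baseline. Over 29 arrays of other groups, whose levels do not enter the differences but whose spread entered the error of the fit, and which exclude the ZIN40 cells without LIF, levels of the 10 largest falls correlated with each other at a median r of 0.58 over 45 pairs, up to 0.92 for Adsl with Snf8. The median over all pairs of spots was -0.00, and that of the 10 largest rises was 0.03. The 73 lower spots had a median level of 17.3, against 16.4 over all spots, and pairs of like level were not compared. Among the rises some pairs went together, with r of 0.83 for Agtrap with Plpbp, 0.76 for Srgn with Mpeg1 and 0.72 for Cyb5a with Selenop. These are descriptions over arrays that share their normalization, and carry no p.

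Of 23 measured genes of the cell cycle and mitosis, 1 was called, against 2.90% of all spots, and it was higher in macrophages. Cdt1, which licenses origins for replication, read 17.80, 18.35 and 18.20 in macrophages against 16.94 to 17.58 in the lines, a difference of 0.83 ± 0.23 (adjusted p = 0.0398) that was kept in 3 of 8 fits with an array left out. Its macrophage mean of 18.12 ranked 5 of 14 groups. Inguinal adipocytes stood at 18.19, proliferating C3H-10T1/2 at 18.15, tibialis muscle at 18.01 and proliferating C2C12 myoblasts at 17.58. The level is thus not particular to macrophages. The proliferation marker Mki67 had 0.02 ± 0.13, cyclin D1 (Ccnd1), which drives entry into the cycle, -0.33 ± 0.13, and the replication clamp Pcna -0.21 ± 0.16, none of them called. Differences of 18 of the 23 were negative, with a median of -0.07. Without scaling the median was 0.13, still below the 0.20 of all spots under that setting. Only 9 of the 23 were among the 2880 bright spots that were also tested alone. Their median was -0.17, beside 0.02 over those bright spots. The offset compresses differences of dim spots, so the lack of calls in this list does not show that cell cycle genes were expressed alike. None of the 17 genes in the list of cell cycle inhibitors and growth arrest was called, and their median was -0.03. The list also holds Myc (0.01) and Mdm2 (0.29), which do not inhibit the cycle. An unadjusted p under 0.05 was seen for 5 of the 17, and for 837 of all 5760 spots.

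Most other lists lay near 0. Of 21 genes of the actin cytoskeleton and adhesion, 1 was called, against 2.90% of all spots. This gene, Capza1, a subunit of the protein that caps actin filaments, rose by 0.68 ± 0.14 (adjusted p = 0.00336). It read 17.52 to 17.91 in macrophages against 16.98 to 17.21 in the lines. None was called (1 at an unadjusted p under 0.05) among 14 immediate early and stress genes, of which the chaperonin Hspe1 had -0.49 ± 0.15. None was called among 17 genes of oxidative phosphorylation (median -0.06), 7 of sterol and fatty acid synthesis or sterol export (0.12), 11 of the proteasome and ubiquitin (-0.16) or 18 of splicing and translation (-0.08). The proteasome subunit Psmd8 came closest, with -0.39 ± 0.12 and an adjusted p of 0.0575. At an unadjusted p under 0.05, 2 of the 17, 2 of the 7, 1 of the 11 and 2 of the 18 would pass, as would 837 of all 5760 spots.

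Genes of other cells that a peritoneal wash can hold gave no call. Of 10 lymphocyte genes, Cd79b, part of the B cell receptor, had 0.65 ± 0.19 with an adjusted p of 0.0522 against both lines, and 0.87 with an adjusted p of 0.0231 against Raw 264. It stood at 17.52 in macrophages, 17.09 in J774 and 16.65 in Raw 264, but at 17.67 in inguinal adipocytes. The summed log2 level of the 10 genes ran from 164 to 165 on the macrophage arrays, 162 to 164 on Raw 264 and 164 to 165 on J774. Of 10 mesothelial and fibroblast genes, Eln, which encodes elastin, had 0.69 ± 0.21 (adjusted p = 0.0661), and the list's summed level was 165 to 166 in macrophages, 165 to 166 in Raw 264 and 165 on both J774 arrays. The median level of all spots was 16.4 with the offset included. Such sums of 10 genes are therefore mostly that common level, and would show little of a minor cell type. None of 7 adipocyte genes was called either, and 1 passed an unadjusted p under 0.05, as did 837 of all 5760 spots. Hbb-b1 of red cells had 0.52 ± 0.24, the mast cell protease Mcpt4 0.19 ± 0.11 and the endothelial cadherin Cdh5 -0.02 ± 0.12. Of the defining markers fixed for these cells, 1 of 6 was measured for lymphocytes, 1 of 6 for mast cells and granulocytes, 0 of 6 for mesothelium, 1 of 4 for endothelium and 1 of 3 for red cells. With the offset added no spot can read 0, so a level does not by itself show that a marker was detected. Mcpt4 stood at 16.50 in macrophages, against 16.21 to 16.62 over the means of the 11 other groups. Cdh5 stood at 16.41, against 16.18 to 16.82. The part of such cells in the results was not tested, and in such bulk samples fewer cells of a type and less RNA per cell cannot be told apart.

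Set against each line alone, macrophages differed from Raw 264 at 94 spots, 1.63% of those tested, with 60 higher (1.04%) and 34 lower (0.590%). They differed from J774 at 115 spots, 2.00%, with 40 higher (0.694%) and 75 lower (1.30%). The comparisons share the macrophage arrays, so their calls are given side by side and not set against each other. With median scaling the splits were 7 higher and 8 lower against Raw 264 and 9 higher and 4 lower against J774. Without scaling the median of all spots shifted by 0.57 against Raw 264, by -0.15 against J774 and by -0.75 for Raw 264 minus J774. The part of array brightness in these splits was not tested. Slpi was higher by 1.81 ± 0.14 against Raw 264 and by 1.35 ± 0.16 against J774, and Serpinb2 by 1.54 ± 0.11 and 1.49 ± 0.13. Cybb was higher by 1.07 ± 0.28 and 1.87 ± 0.31, and Mpeg1 by 1.02 ± 0.15 and 1.04 ± 0.16, all with adjusted p under the threshold. Rps3 differed by -1.85 ± 0.34 from Raw 264 (adjusted p = 0.00245) and by -0.59 ± 0.38 from J774 (adjusted p = 0.581), and Aldoa by -1.47 ± 0.30 (0.00570) and -0.76 ± 0.34 (0.313). For Ilf2 the order was the opposite, with -1.08 ± 0.32 (0.0719) and -1.84 ± 0.36 (0.00240). None of these genes was called between the lines: the difference of Raw 264 from J774 was 1.25 for Rps3 (adjusted p = 0.228), 0.70 for Aldoa (0.473) and -0.76 for Ilf2 (0.463). Without Raw 264 array 1 the split against Raw 264 was 33 higher and 37 lower. The count against Raw 264 fell to 29, 39 and 59 without macrophage array 2, macrophage array 3 and Raw 264 array 2, and the count against J774 to 7, 63 and 64 without J774 array 1, macrophage array 3 and macrophage array 2.

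The lines themselves differed at 6 spots, 0.104% of those tested, all 6 higher in J774, while 577 spots had an unadjusted p under 0.05. Named among them were Pacc1, a proton-activated chloride channel, Trappc13, a subunit of the TRAPP traffic complex, and Mocs2, of molybdenum cofactor synthesis. Pacc1 read 19.20 and 18.10 on J774, 16.42, 17.35 and 17.06 on Raw 264 and 16.56 to 16.87 on the macrophage arrays. J774 stood alone, and Raw 264 minus J774 was -1.71 (adjusted p = 0.00746). Trappc13 read 18.12 and 17.65 on J774 against 16.36 to 17.27 on Raw 264 and 16.46 to 16.65 in macrophages, and its difference was -1.03 (adjusted p = 0.0182). Mocs2 had -0.81 (adjusted p = 0.00860). The other spots of Trappc13 and Mocs2 had -0.10 and -0.23 and were not called, so the spots of these genes disagree. No spot was called without J774 array 1 or without Raw 264 array 1, and 15 were without J774 array 2 or without Raw 264 array 3. At an unadjusted p under 0.05 the first 2 fits gave 370 and 507 spots, respectively.

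A step from lines to primary cells could also be read in the fat lineage, with no array in common. There, 3 arrays of stroma-vascular cells of inguinal fat, the non-fat cells of the tissue, were plated 24 h in the same medium as the macrophages and set against 4 preadipocyte lines in 5 samples. Stroma-vascular cells are a mixed fraction, so cell composition may change along with the step from line to primary cell. These cannot be told apart here. That comparison called 11 spots, 0.191% of those tested, 10 of them (0.174%) higher and 1 (0.0174%) lower in the primary cells. The difference in macrophages minus that in the fat lineage was called at 7 spots, 0.122%, with 3 higher (0.0521%) and 4 lower (0.0694%). All 7 lay among the 167 spots called in macrophages against both lines. The count was 1 without stroma-vascular array 2 or 3, 3 without preadipocyte sample 3 or J774 array 1, and 4 without macrophage array 3 or Raw 264 array 3. It rose to 11 without preadipocyte sample 5 or stroma-vascular array 1, to 19 without J774 array 2 and to 24 without Raw 264 array 1.

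**Figure D5:**
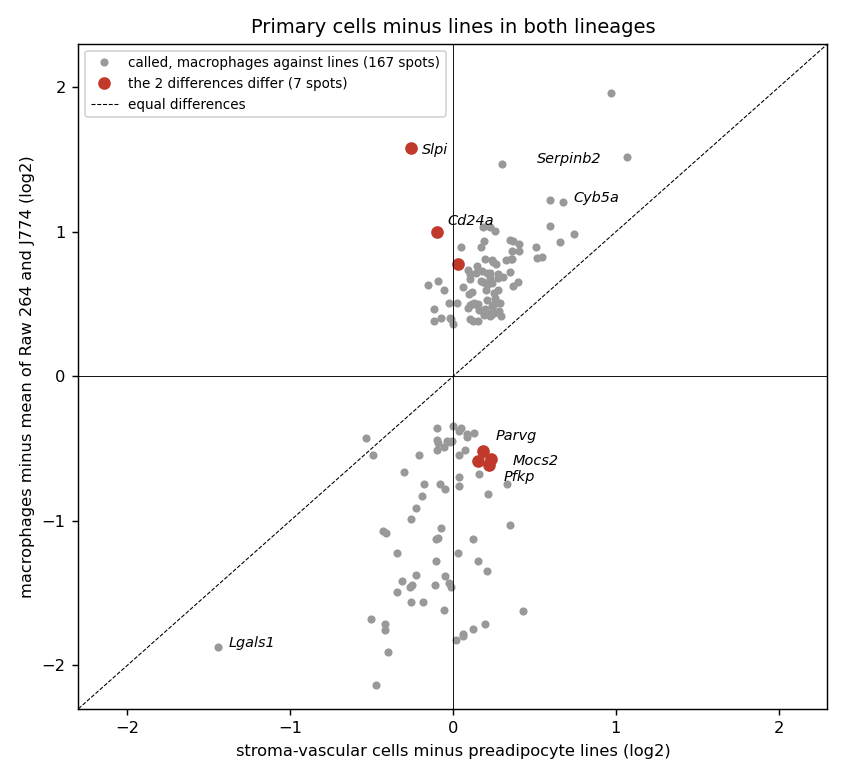
Difference of macrophages from their lines (vertical) against that of stroma-vascular cells from preadipocyte lines (horizontal), both log2, for the 167 spots called in macrophages, with the 7 spots at which these differences differed by test in red. Slpi and Cd24a rise in macrophages alone, Serpinb2 lies high on both axes, and Parvg, Pfkp and Mocs2 fall in macrophages and lie slightly above 0 in the fat lineage.

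Slpi separated the lineages most. It read 16.49 to 16.65 in stroma-vascular cells and 16.33 to 17.19 in preadipocyte lines, a difference of -0.26, and the macrophage difference exceeded it by 1.83 ± 0.19 (adjusted p = 2.41e-07). Cd24a differed between the lineages by 1.10 ± 0.22 (adjusted p = 0.0296). Pfkp differed by -0.83 ± 0.16 (adjusted p = 0.0150), Mocs2 by -0.81 ± 0.17 (0.0437) and Parvg, an adaptor between integrins and actin in blood cells, by -0.70 ± 0.14 (0.0296). Parvg read 16.32 to 16.45 in macrophages against 16.84 to 17.11 in the lines, where it was higher than in every other group, and its fall against them was 0.52 on the log2 scale, or -0.52 ± 0.10. Serpinb2 rose in the fat lineage too, by 1.07 (adjusted p = 1.29e-07), and its rise in macrophages exceeded that by 0.45 ± 0.15, which was not called (adjusted p = 0.300). Lgals1 had -1.44 in the fat lineage, not called (adjusted p = 0.133), against -1.88 in macrophages. Without stroma-vascular array 2, or array 3, or with median scaling, Slpi alone of these 5 genes (Slpi, Cd24a, Pfkp, Mocs2 and Parvg) kept its call. The other spot of Mocs2 had -0.00.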

How the data were processed

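Radioactively labelled cDNA was hybridised to nylon filters and quantified with Imagene, per the labels' protocols. The values are spot intensities as deposited by the authors, on a linear scale, and the sources used here do not state their background correction or scaling. Intensities were quantile normalized over 40 arrays, and log2 was taken after adding 36370, the 10th percentile. limma 3.58.1 in R 4.3.3 fitted all 14 groups together, with 25 residual degrees of freedom and the 2 3T3-L1 samples averaged. Tests are two-sided. Gene names came from the platform annotation: 3420 of 5760 spots have 1 symbol, 98 several and 2242 none, and 3346 matched a current symbol. In lists, the brightest spot stands for a gene that has more than 1. In simulated data of the comparison with both lines over 5760 spots, 66% of 50 spots changed by 0.5 were recovered and 100% of those changed by 1, 1.5 or 2, with 1 false call of 184. The simulated noise was independent between spots and arrays, with 1 spread per spot and no effect shared by an array. It thus checks the code of the fit, and its rates need not hold for the real arrays.

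Samples were grouped by title. Members and gene lists were chosen with earlier results of these data known. Named genes are the 10 largest rises and falls without overlap, every called list member, the 3 with the lowest p in each list, up to 6 called genes between the lines in each direction and up to 5 for the difference between lineages. Clone names are counted only. Tlr4, Mertk, Fcer1g, Cd163, Lamp1, Rpl34, Rpl19, Rpl22, Mki67 and Pcna lie outside this rule and were chosen after their values were seen. Alternatives covered normalization, offset, background, position on the filter, dim spots, arrays in the fit, variance model, line weights, repeated spots, a replicate block and each array left out. Tables and figures used Python 3.11.15, scipy 1.17.1 and matplotlib 3.10.9.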

Additional observations from a re-analysis of the deposited data

Results flagged for a closer look

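In 5 named genes the difference of macrophages from their lines differed, by the test of that difference in limma, from the difference of stroma-vascular cells from preadipocyte lines. The macrophage difference exceeded the other by 1.83 for Slpi and by 1.10 for Cd24a. It lay below the other for Pfkp (-0.83), Mocs2 (-0.81) and Parvg (-0.70).

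In 3 named genes the difference of macrophages from Raw 264 differed from that from J774, which is the difference between the lines themselves. Raw 264 minus J774 was -1.71 for Pacc1, -1.03 for Trappc13 and -0.81 for Mocs2. Without J774 array 1 no spot was called between the lines, while 370 or more spots had an unadjusted p under 0.05 in each fit with 1 line array left out that gave no call. The causes were not tested.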

How the results depend on the processing

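The 28 genes named for their calls against both lines kept the sign of their difference under each setting that tested them. With bright spots alone, 27 of them were tested. The balance of higher to lower calls turned in some settings: 7 to 8 against Raw 264 and 9 to 4 against J774 with median scaling, and 24 to 29 against both lines and 4 to 3 against J774 without J774 array 1. Counts of called spots are given in the order both lines, Raw 264, J774, Raw 264 against J774 and the difference between lineages, where they moved by over 1.5 times from 167, 94, 115, 6 and 7. Median scaling gave 20, 15, 13, 0 and 1, and no scaling 5, 5, 0, 0 and 0. At an unadjusted p under 0.05, the counts of 0 were 384 between the lines with median scaling, and 77, 1100 and 31 without scaling. An offset 4 times as large gave 12 between the lines and 15 between lineages. Removing a local trend over spot order gave 178 against Raw 264, 16 between the lines and 23 between lineages. Bright spots alone gave 149 against Raw 264 and 11 between lineages. A fit of the compared groups alone gave 229 against J774, 0 between the lines (458 unadjusted) and 3 between lineages. Array weights gave 1154, 712, 779, 40 and 186. The cause of these shifts was not tested.

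The replicate block, which treats shared replicate numbers as a pairing, gave 110, 24, 213 and 0 (291 unadjusted) and was not run for the difference between lineages. Deviations of same-numbered arrays correlated at 0.04, 0.01 and 0.02 between macrophages and Raw 264, at 0.15 and 0.14 between macrophages and J774, and at -0.03 and -0.20 between the lines. As only some exceed 0.1, the numbers were not taken to pair the arrays. With each array left out in turn, counts ran from 53 to 184, from 29 to 119, from 7 to 96, from 0 to 15 and from 1 to 24.

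Of 28 named genes in the comparison with both lines, 13 were called in all 8 fits with an array left out, 10 with median scaling, 4 without scaling, 20 with the replicate block and 28 with array weights. The 3 arrays of ZIN40 without LIF had median intensities from 941 to 42938, a range no other group has, and without them the counts were 157, 77, 91, 6 and 5. With few arrays, and with dim spots compressed by the offset, small differences of dim spots may be missed.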
